A study of Mus musculus with 18 samples.

Results

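The nascent transcripts of 10 genes were followed, whose products silence retrotransposons and other repeats in chromatin, *Trim28*, *Setdb1*, *Atf7ip*, *Mphosph8*, *Pphln1*, *Morc3*, *Daxx*, *Atrx*, *Ehmt1* and *Ehmt2*. They were the 10 rows, of 54446 gene rows in each count file, whose Ensembl identifier carries one of these symbols in GENCODE M21. They were chosen by name and role and not by a rule on a measured value, although earlier results of these data were known. All 10 passed the filter on low counts, which kept 19910 genes, and the lowest count of any member in any library was 340 reads, for *Daxx*.

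The libraries hold nascent RNA from wild-type (WT) mouse embryonic stem (mES) cells and from mES cells in which *Tet2* was knocked out (*Tet2*-KO). TET2 is a dioxygenase that oxidizes 5-methylcytosine. Cells of both genotypes received 1 mM 5-ethynyl uridine (EU), a uridine analogue that is built into RNA as it is made, for 10, 20 or 40 min, and 3 dishes were taken for each genotype and labelling time, 18 libraries in all. The labelled RNA was biotinylated, captured on streptavidin beads and mixed with ERCC spike-in RNA in proportion to the total RNA of the sample. Each genotype was 1 cell line, so p-values measure at most the spread between dishes. Any other difference between the 2 lines cannot be told apart from the loss of *Tet2*. Both lines grew in the same medium with serum, LIF, a GSK3 inhibitor and a MEK inhibitor, and were passaged off feeder cells on gelatin.

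KRAB zinc-finger proteins bind retrotransposon sequence and recruit TRIM28, which brings in the histone methyltransferase SETDB1. SETDB1, held in the nucleus by ATF7IP, places trimethylation on lysine 9 of histone H3 (H3K9), and the HUSH complex, with MPHOSPH8 and Periphilin (encoded by *Pphln1*), spreads and maintains that mark over young L1 elements and other integrated sequence. MORC3, the histone H3.3 chaperone DAXX and the remodeller ATRX act at the same elements, and EHMT1 and EHMT2 (GLP and G9a) form the enzyme that places dimethylation on H3K9. In ES cells this system keeps endogenous retroviruses silent.

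Libraries held 17931614 to 23069143 reads on genes and 44162 to 512186 ERCC reads. Each member was therefore described in 2 ways. Reads per 1000 ERCC reads follow the amount of captured RNA per unit of total RNA. They correct neither for the yield of the capture nor for the total RNA per cell. CPM, the reads of a member per 1000000 gene reads of the library, is its share of the labelled RNA. *Tet2* itself did not check the labels, because its gene total does not show which exons were removed. Its share was 589 to 741 CPM in WT and 530 to 643 in libraries labelled *Tet2*-KO, and its difference averaged over labelling times was -0.20 ± 0.01 (SE) on the log2 scale as share and 0.54 ± 0.05 per ERCC read. The 10 ES-cell marker genes summed to 3119 to 3304 CPM in WT and 2241 to 2371 in *Tet2*-KO. Most of that fall lay in *Zfp42* (median 534 in WT and 116 CPM in *Tet2*-KO) and *Tfcp2l1* (1008 and 703), and *Pou5f1* went the other way (85.8 and 106). *Sox2*, a defining gene of these cells, had 0 reads in every library. Short unconfirmed genes inside another gene on the same strand had almost no reads in these counts, as given below. Whether this holds for *Sox2* was not tested, and its 0 is not read as a lack of its RNA. The fibroblast list summed to 7.67 to 27.2 and 7.65 to 15.3, with *Lum* at 0 or 1 read in every library, the primitive endoderm list to 6.75 to 13.8 and 5.49 to 10.7, and the two-cell-like list to 21.8 to 33.6 and 3.06 to 5.99. The part of these marker shifts in the results below was not tested.

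The bases before the start of 4 members are shown. They are the corepressor that heads the pathway (*Trim28*) and the member with the largest difference (*Atrx*). With them stand the 2 members with the most alike share profiles over the libraries, *Setdb1* and *Morc3*, although their r was 0.94 over the libraries and 0.22 within groups. Whether the members share control through these bases was not tested. The bases are RefSeq sequence of build GRCm38.p6, read 5′ to 3′ on the strand of the gene and ending at the start site or, for *Atrx*, before the first annotated exon. The locations are chr7:13023902-13024151 on the plus strand for *Trim28*, chr3:95357203-95357452 on the minus strand for *Setdb1*, chr16:93831871-93832120 on the plus strand for *Morc3* and chrX:105929404-105929622 on the minus strand for *Atrx*. Capitals mark matches on either strand to the GC box, searched as GGGCGG. They also mark the ETS core, searched as CCGGAA. The CCAAT box was searched by those letters. The core of the cyclic AMP response element was searched as TGACG, and the TATA box as TATAAA.
Trim28: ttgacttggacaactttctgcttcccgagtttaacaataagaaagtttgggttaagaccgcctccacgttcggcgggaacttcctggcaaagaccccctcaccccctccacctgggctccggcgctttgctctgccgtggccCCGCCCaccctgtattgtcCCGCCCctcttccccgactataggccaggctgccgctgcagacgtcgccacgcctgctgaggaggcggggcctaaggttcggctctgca
Setdb1: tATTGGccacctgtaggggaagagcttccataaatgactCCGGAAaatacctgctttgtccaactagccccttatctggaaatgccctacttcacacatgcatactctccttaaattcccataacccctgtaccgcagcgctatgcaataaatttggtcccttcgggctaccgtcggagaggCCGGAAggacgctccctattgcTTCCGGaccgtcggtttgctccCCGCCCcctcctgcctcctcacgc
Morc3: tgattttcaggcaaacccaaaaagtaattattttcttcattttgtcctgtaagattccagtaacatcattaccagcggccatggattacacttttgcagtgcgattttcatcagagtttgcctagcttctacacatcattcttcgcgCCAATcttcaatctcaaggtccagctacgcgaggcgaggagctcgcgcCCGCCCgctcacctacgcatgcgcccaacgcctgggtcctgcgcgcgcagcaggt
Atrx: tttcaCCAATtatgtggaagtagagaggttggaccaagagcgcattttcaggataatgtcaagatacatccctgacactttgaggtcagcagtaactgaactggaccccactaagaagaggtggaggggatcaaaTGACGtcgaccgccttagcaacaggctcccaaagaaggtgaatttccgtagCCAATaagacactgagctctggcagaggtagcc
All 10 members had such a window of 250 bases, and 9 had more CpG dinucleotides in it than the median of 6 over 32851 promoters. *Pphln1* had the most, 46, and *Atrx* had 6. The GC box stood in 8 of the 10 windows and in 32.7% of all promoters, the CCAAT box in 6 and 33.8%, the cyclic AMP core in 4 and 17.8%, the ETS core in 2 and 12%, and the TATA box in 0 and 12.4%. These are matches of letters and not sites of binding.

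Per ERCC read, all 10 members were higher in *Tet2*-KO than in WT cells. Averaged over labelling times, 10 of 10 passed the test (edgeR quasi-likelihood test, adjusted p under 0.05), against 80.5% of all genes tested (4.15% were lower), and log2 fold changes ran from 0.58 for *Atf7ip* to 1.11 for *Atrx*, with a member median of 0.82 beside 0.70 over all genes. At 10, 20 and 40 min all 10 were also called, against 79%, 53.7% and 68.2% of genes, and at each of the 3 times every *Tet2*-KO library lay above every WT library for all 10, which held for 75.6%, 57.2% and 71.7% of genes. A rise of this kind was thus shared with most of the genome. The error in a library's ERCC total is shared by all its genes, while the test pools the spread over genes. The p-values per ERCC read are therefore smaller than 3 dishes a group can bear out. In bulk samples, fewer cells of a type and less RNA per cell cannot be told apart.

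**Figure D1:**
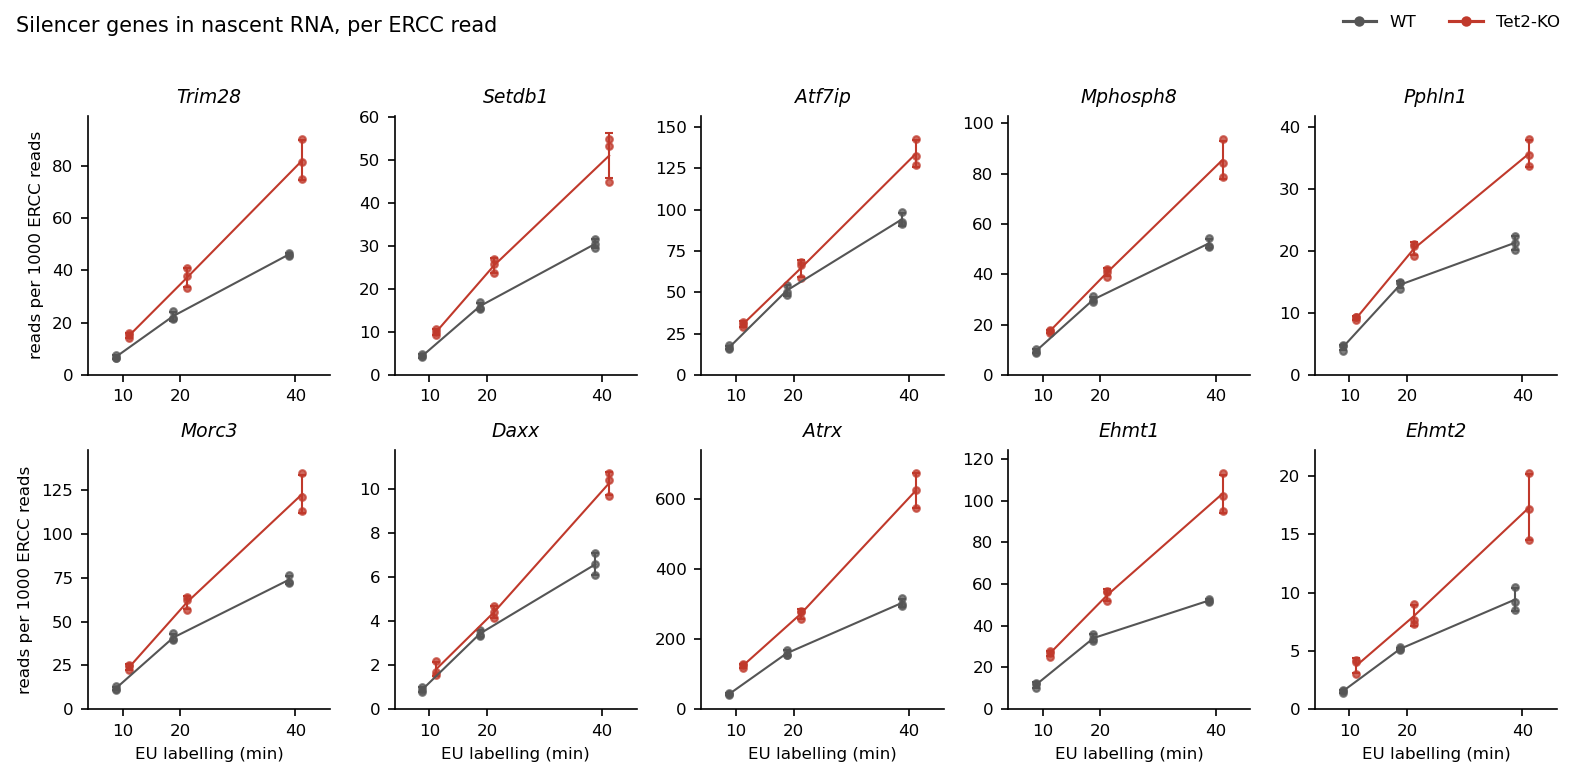
Reads per 1000 ERCC reads (vertical axes, from 0) against EU labelling time in min for the 10 genes, with 1 point per library, lines through the means of 3 libraries and bars of 1 SD, WT in grey and *Tet2*-KO in red. The *Tet2*-KO libraries lie above the WT libraries at 10, 20 and 40 min in each of the 10 panels.

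As a share of gene reads the members parted. Of 10, 6 were higher (*Trim28*, *Setdb1*, *Morc3*, *Atrx*, *Ehmt1* and *Ehmt2*), 2 were lower (*Atf7ip* and *Mphosph8*), and *Pphln1* and *Daxx* were not called, against 24.6% of genes higher and 32% lower. The member median was 0.09 beside -0.04 over all genes. The *Mphosph8* call was lost, and *Pphln1* was called higher, with TMM factors or with DESeq2 and its own size factors.

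*Trim28* (ENSMUSG00000005566.14), on chromosome 7, encodes the corepressor that KRAB zinc-finger proteins recruit. In WT it had 6.47, 7.65 and 6.30 reads per 1000 ERCC reads at 10 min, 21.8, 24.5 and 21.2 at 20 min, and 45.9, 46.6 and 45.5 at 40 min. In *Tet2*-KO the values were 15.4, 14.1 and 16.0, then 33.2, 40.7 and 37.9, then 90.2, 74.9 and 81.4. The genotypes did not overlap at any time, and the averaged difference was 0.91 ± 0.05 on the log2 scale (edgeR adjusted p = 1.41e-51). As share of gene reads, WT libraries held 139, 151 and 147 CPM at 10 min, 151, 156 and 151 at 20 min and 189, 180 and 190 at 40 min, and *Tet2*-KO libraries 161, 157 and 159, then 173, 189 and 179, then 210, 205 and 205. Again the *Tet2*-KO libraries were higher at each time. The difference in share was 0.13 ± 0.03 at 10 min, 0.24 ± 0.03 at 20 min and 0.15 ± 0.03 at 40 min, and 0.17 ± 0.02 averaged (edgeR adjusted p = 2.83e-09).

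*Setdb1* (ENSMUSG00000015697.14), on chromosome 3, encodes the methyltransferase that TRIM28 brings to its targets. Its share was 91.7, 95.9 and 96.1 CPM in WT at 10 min, 108, 108 and 110 at 20 min and 125, 122 and 123 at 40 min. In *Tet2*-KO it was 105, 102 and 106, then 123, 125 and 122, then 128, 123 and 134. The genotypes were apart at 10 and 20 min and overlapped at 40 min, where the difference was 0.05 ± 0.04 and did not pass (edgeR adjusted p = 0.244). Averaged, the share was 0.13 ± 0.02 higher (edgeR adjusted p = 2.92e-06), and per ERCC read *Setdb1* was 0.86 ± 0.05 higher.

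*Atf7ip* (ENSMUSG00000030213.12), on chromosome 6, encodes the partner that stabilizes SETDB1, and it moved the other way in share. WT libraries held 349, 351 and 365 CPM at 10 min, 347, 347 and 346 at 20 min and 381, 381 and 382 at 40 min. *Tet2*-KO libraries held 323, 321 and 320, then 307, 316 and 314, then 332, 347 and 334, each below every WT library of the same time. The averaged difference in share was -0.16 ± 0.01 on the log2 scale (edgeR adjusted p = 1.03e-11), and it was called lower at each time. Per ERCC read it was still higher in *Tet2*-KO, at 16.3, 17.8 and 15.6 against 31.0, 28.8 and 32.2 reads per 1000 ERCC reads at 10 min and 92.8, 98.6 and 91.3 against 143, 127 and 132 at 40 min, the smallest averaged rise of the 10 (0.58 ± 0.05). Lower shares were common around it: the 735 other protein-coding genes tested on chromosome 6 had a median of -0.27, with 399 lower and 156 higher, and the 14 within 1 Mb a median of -0.33. What moved this chromosome was not tested.

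Averaged over times, the HUSH members differed little in share, by -0.06 ± 0.02 for *Mphosph8*, as did *Morc3* and *Daxx* below. At 10 min *Mphosph8* had the lowest share difference of the 10. *Mphosph8* (ENSMUSG00000079184.10, chromosome 14) encodes the subunit that reads methylated H3K9. At 10 min its share was 199, 205 and 201 CPM in WT and 182, 186 and 177 in *Tet2*-KO, with no overlap and a difference of -0.15 ± 0.03 (edgeR adjusted p = 7.34e-05). At 40 min the libraries overlapped, at 210, 210 and 215 against 218, 215 and 212, with a difference of 0.02 ± 0.03. *Pphln1* (ENSMUSG00000036167.16, chromosome 15), which encodes the RNA-binding subunit, held 83.1 to 102 CPM in WT and 88.6 to 100.5 in *Tet2*-KO, overlapped at each time, and differed by 0.03 ± 0.02 averaged (edgeR adjusted p = 0.319). Per ERCC read *Mphosph8* was 0.68 ± 0.05 and *Pphln1* 0.76 ± 0.05 higher.

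*Morc3* (ENSMUSG00000039456.10, chromosome 16), an ATPase of the MORC family, differed by 0.05 ± 0.02 in share averaged over times (edgeR adjusted p = 0.00372). Its libraries held 274, 275 and 284 CPM in WT and 297, 290 and 303 in *Tet2*-KO at 20 min, apart from each other, and overlapped at 10 min. At 40 min the difference of 0.05 ± 0.03 did not pass (edgeR adjusted p = 0.124), although 299, 296 and 301 in WT lay below 314, 309 and 306 in *Tet2*-KO. With TMM factors *Morc3* was called higher at 10 and at 40 min, and with DESeq2 and its own size factors at 10 min. Of the 13 other protein-coding genes tested within 1 Mb of it, 9 were lower and 0 higher.

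*Daxx* (ENSMUSG00000002307.15, chromosome 17), which encodes the histone H3.3 chaperone that works with ATRX, was read least. It had 340 to 623 reads a library, and its share of 16.8 to 27.3 CPM in WT and 16.3 to 26.4 in *Tet2*-KO differed by -0.06 ± 0.05 averaged (edgeR adjusted p = 0.323). At 20 min the *Tet2*-KO values, 21.5, 21.6 and 20.8, lay below the WT values, 23.4, 22.8 and 23.7, but the difference of -0.13 ± 0.09 did not pass.

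*Atrx* (ENSMUSG00000031229.16), on chromosome X, encodes the remodeller that brings DAXX to chromatin and had the largest difference of the 10. Per 1000 ERCC reads WT libraries held 42.1, 46.5 and 40.1 at 10 min, 156, 169 and 153 at 20 min and 301, 316 and 293 at 40 min, and *Tet2*-KO libraries 125, 118 and 129, then 257, 280 and 279, then 673, 575 and 625. The averaged difference was 1.11 ± 0.05 on the log2 scale, a 2.16-fold rise (edgeR adjusted p = 3.61e-76), above 87.7% of the 15158 protein-coding genes tested. As share, WT libraries held 904, 916 and 936 CPM at 10 min, 1078, 1078 and 1095 at 20 min and 1238, 1223 and 1226 at 40 min. *Tet2*-KO libraries held 1306, 1316 and 1283, then 1339, 1298 and 1320, then 1568, 1572 and 1577, all above the WT libraries of their time, and each *Tet2*-KO library was above the highest WT library of any time. The share was 0.38 ± 0.01 higher (edgeR adjusted p = 8.55e-26). The 515 other protein-coding genes tested on the X chromosome had a median share difference of 0.02, and the 11 within 1 Mb of *Atrx* one of -0.04.

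*Ehmt1* (ENSMUSG00000036893.17, chromosome 2) and *Ehmt2* (ENSMUSG00000013787.15, chromosome 17) encode the paired subunits of the H3K9 dimethylase. *Ehmt1* held 259, 249 and 238 CPM in WT at 10 min, 232, 230 and 232 at 20 min and 214, 204 and 214 at 40 min, and 281, 281 and 276, then 270, 262 and 266, then 263, 260 and 258 in *Tet2*-KO, with no overlap at any time. Its share was 0.22 ± 0.02 higher averaged (edgeR adjusted p = 7.28e-14) and was called higher at all 3 times. *Ehmt2* had 602 to 984 reads a library and more spread. It held 34.4, 31.1 and 32.0 CPM in WT and 43.8, 33.4 and 39.8 in *Tet2*-KO at 10 min, where replicate 1 of *Tet2*-KO was highest and the call was lost without it, and the averaged share was 0.20 ± 0.05 higher (edgeR adjusted p = 0.000407). The libraries overlapped at all 3 times, and *Ehmt2* was not called at 20 or 40 min, although with TMM factors, DESeq2 or no filter beyond 1 read it was called higher at 40 min. Of the 83 other protein-coding genes tested within 1 Mb of *Ehmt2*, 9 were higher and 36 lower in averaged share. Counted in the same way, 6 of 32 were higher and 12 lower around *Mphosph8* (median -0.16), and 5 of 55 higher and 26 lower around *Daxx* (median -0.15). The median was 0.08 around *Trim28*, -0.04 around *Setdb1*, 0.14 around *Pphln1* and -0.10 around *Ehmt1*. Whether a member moved with its neighbours was not tested.

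**Figure D2:**
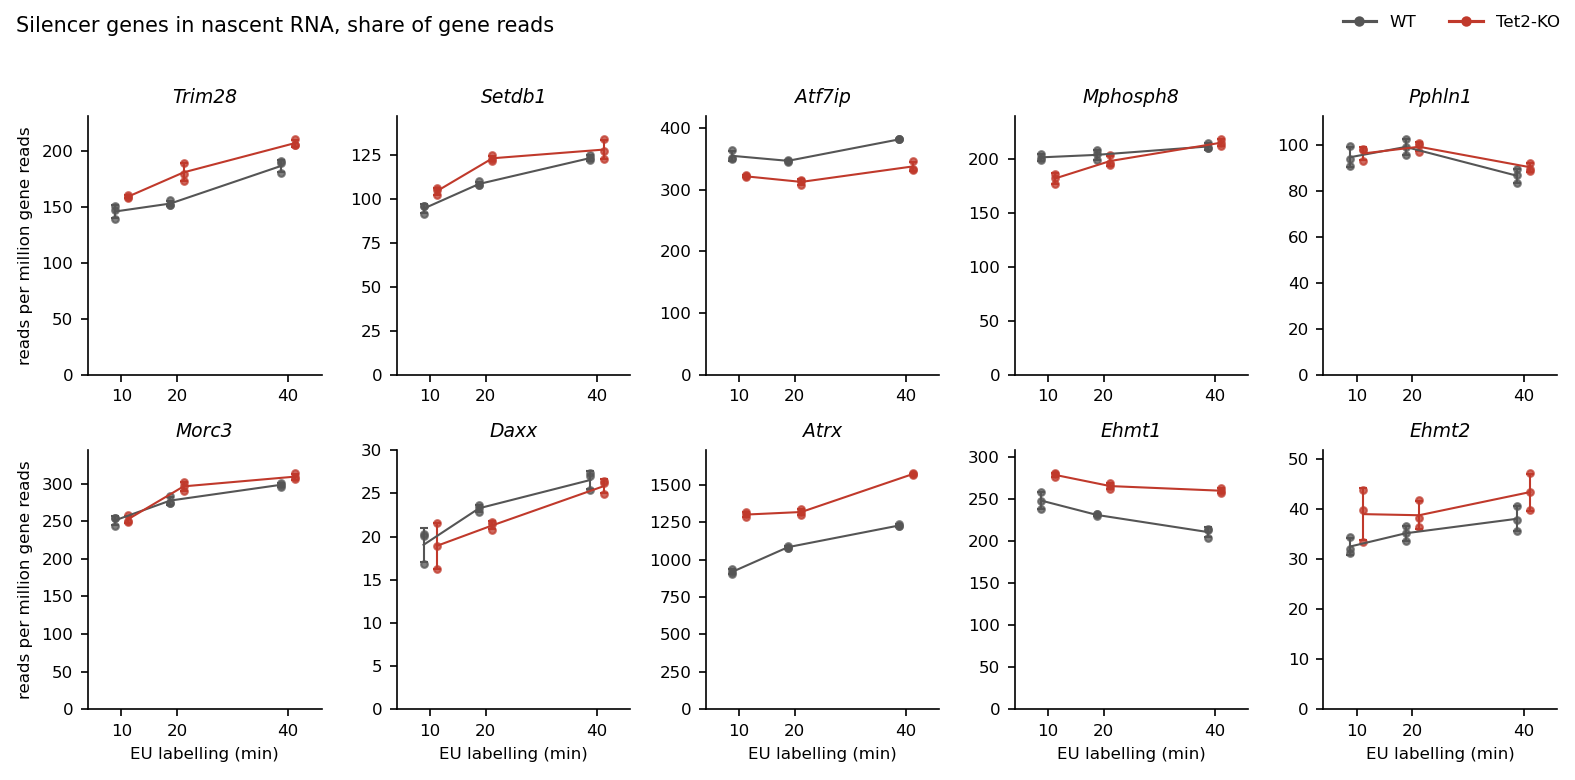
Share in CPM (vertical axes, from 0) against EU labelling time in min for the 10 genes, with 1 point per library, lines through the means of 3 libraries and bars of 1 SD, WT in grey and *Tet2*-KO in red. *Atrx* and *Ehmt1* lie higher and *Atf7ip* lower in *Tet2*-KO at each time, and *Pphln1* overlaps at each time.

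At single labelling times the share calls were fewer. At 10 min 5 members were higher (17.9% of genes) and 2 lower (27.1%), at 20 min 5 higher (17.6%) and 1 lower (20.7%), and at 40 min 3 higher (18.9%) and 1 lower (19.6%). *Trim28*, *Atrx* and *Ehmt1* were called higher and *Atf7ip* lower at all 3. Every *Tet2*-KO library lay above every WT library for 4 members at 10 min (18.5% of genes), 5 at 20 min (22.8%) and 4 at 40 min (25.7%), and below for 2 (27.1%), 2 (26.8%) and 1 (26.8%).

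Per ERCC read the ratio of *Tet2*-KO to WT was larger at 10 min than at 40 min in all 10 members. The decline was not steady: the member median was 2.15-fold at 10 min, 1.52-fold at 20 min and 1.67-fold at 40 min, beside 1.94-fold, 1.37-fold and 1.59-fold over all genes, and each member had its smallest ratio at 20 min. The change from 10 to 40 min was tested as an interaction of genotype and time, and 4 passed as smaller at 40 min, against 19.3% of genes. On the log2 scale they were *Setdb1* (-0.44 ± 0.13), *Atf7ip* (-0.38 ± 0.12), *Atrx* (-0.49 ± 0.12) and *Ehmt2* (-0.42 ± 0.15), beside a median of -0.29 over all genes. As share, *Atrx* again fell (-0.15 ± 0.02), 1 of 10 against 3.36% of genes, and *Mphosph8* (0.17 ± 0.04) and *Ehmt1* (0.13 ± 0.04) rose, 2 of 10 against 5.89%. Both of the latter calls were lost with TMM factors and with DESeq2, and the *Atrx* calls on both scales were kept in every fit run. Per ERCC read the *Ehmt2* call was lost with DESeq2 and ERCC size factors, which also called *Trim28*, *Pphln1* and *Morc3* (6 members in all), and with no filter beyond 1 read. It was also lost without replicate 3 of WT or replicate 1 or 3 of *Tet2*-KO at 10 min, and without replicate 2 of WT or replicate 2 or 3 of *Tet2*-KO at 40 min. A minimum of 10 counts in every library added *Trim28* and *Morc3*. Without 1 library at a time the count per ERCC read ran from 1 to 8, with 1 left without replicate 2 of *Tet2*-KO at 40 min, 2 without replicate 2 of WT at 40 min or replicate 3 of *Tet2*-KO at 10 min, 7 without replicate 1 of *Tet2*-KO at 40 min and 8 without replicate 2 of WT at 10 min.

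**Figure D3:**
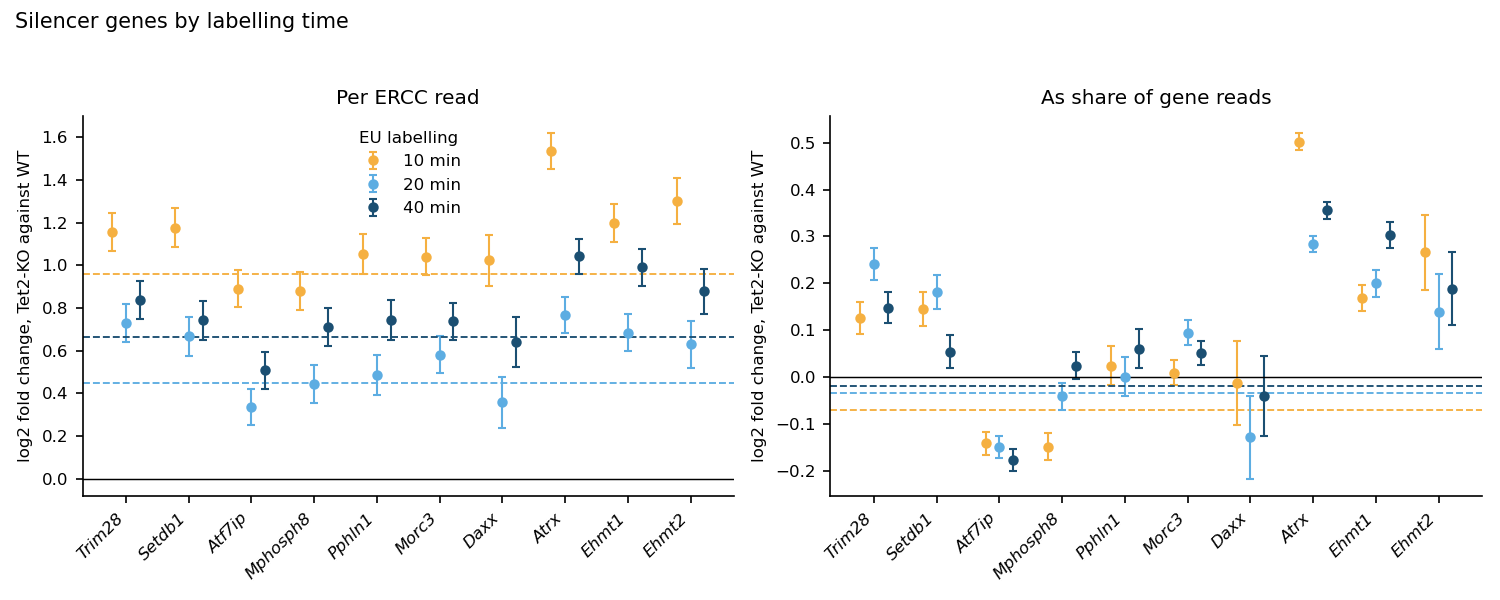
Log2 fold changes of *Tet2*-KO against WT (vertical axes) for the 10 genes at 10, 20 and 40 min of EU, with bars of 1 SE, per ERCC read on the left and as share of gene reads on the right, and dashed lines at the median of all genes tested at each time. Per ERCC read all points lie above 0, and as share *Atrx* lies highest and *Atf7ip* lowest or among the lowest at each time.

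With longer labelling most members took a larger share of the labelled RNA. From 10 to 40 min in WT, 8 members were higher (16.1% of genes) and *Pphln1* and *Ehmt1* lower (29.5%), and in *Tet2*-KO 7 were higher (16.5%) and *Ehmt1* lower (20%), with *Pphln1* and *Ehmt2* not called. *Daxx* rose most in both, by 0.48 ± 0.09 and 0.45 ± 0.09. *Ehmt1* fell by 0.24 on the log2 scale in WT and by 0.10 in *Tet2*-KO, the latter not called with TMM factors or DESeq2, as was the *Pphln1* call in WT. In WT the *Mphosph8* call was lost with the replicate number as a block (edgeR adjusted p = 0.0503), with no filter beyond 1 read, and without any 1 of 6 libraries (replicate 1 or 3 of WT at 10 min, any replicate of WT at 40 min, or replicate 2 of *Tet2*-KO at 40 min). The *Ehmt2* call in WT was lost without replicate 2 at 10 min or at 40 min, and the *Pphln1* call without replicate 1 at either time. In *Tet2*-KO the *Atf7ip* call was lost with no filter beyond 1 read and without replicate 3 at 10 min or replicate 2 at 40 min. Without 1 library at a time the higher members were 6 to 8 in each genotype, and TMM factors moved the median of all genes in this comparison from -0.14 to -0.03.

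A line of reads per 1000 ERCC reads on EU time gave each member a rate. In *Tet2*-KO the rate was 1.36 ± 0.09 (SE) times that of WT for *Atf7ip*, 1.73 ± 0.11 for *Trim28*, 1.60 ± 0.13 for *Setdb1*, 1.98 ± 0.14 for *Atrx* and 1.98 ± 0.23 for *Ehmt1*, beside 1.56 ± 0.15 for the summed reads of all protein-coding genes. *Atrx* had the highest slope, 8.48 ± 0.47 reads per 1000 ERCC reads per min in WT and 16.8 ± 0.78 in *Tet2*-KO. *Daxx* had the lowest, 0.18 ± 0.01 and 0.28 ± 0.01. These slopes were not divided by length, and the gene spans were 132 kb for *Atrx* and 6.18 kb for *Daxx*. Their order is therefore not an order of transcription per length. The median ratio of the members, 1.64, was 1.21 with the 10 and 20 min libraries alone and 1.96 with the 20 and 40 min libraries alone. For the summed reads of all protein-coding genes the ratio was 1.11 and 1.92 in these cases, so the swing was not particular to the members.

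Levels were compared between members only per kilobase, and their order depended on the length used. In WT at 40 min, in CPM per kilobase of merged exons, *Mphosph8* stood highest (59.0 ± 0.80, SD, n = 3), followed by *Atrx* (56.5 ± 0.36), *Morc3* (55.0 ± 0.44) and *Trim28* (44.8 ± 1.29), and *Ehmt2* lowest (6.93 ± 0.45). Per kilobase of gene span *Atrx* stood highest (9.32 ± 0.06) and *Pphln1* lowest (0.93 ± 0.03). Neighbours in the exon order did not overlap except *Pphln1* and *Atf7ip*. *Trim28* has a GENCODE span of 31.9 kb and a RefSeq span of 6.88 kb, and with RefSeq spans it was the highest, at 27.1 ± 0.78. Reads of 773 of 773 short unconfirmed genes inside another gene on the same strand numbered at most 3, against 28 of 136 on the opposite strand. On the same strand their median was 0 reads, where the density of the host gene over its span would give 686. Counting by strand over whole gene spans leaves such genes without reads. Merged exons may therefore not be the length counted, and the order by exons is given with that limit. The feature type and strand setting of the counting are not given in the sources used here.

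The gene whose share followed a member most closely over the 18 libraries, among 7542 protein-coding genes, was *Tcp1* for *Trim28* (Pearson's r = 0.97), *Asna1* for *Setdb1* (0.98), *Il17rd* for *Atf7ip* (0.96), *Ttc17* for *Mphosph8* (0.93), *Mrpl1* for *Pphln1* (0.87), *Dmtf1* for *Morc3* (0.98), *Mgea5* for *Daxx* (0.92), *Tcf20* for *Atrx* (0.99), *Dpp6* for *Ehmt1* (0.97) and *Pfas* for *Ehmt2* (0.85). The libraries share their genotypes, labelling times and depths, and no p is given. Among members *Setdb1* and *Morc3* were most alike, with r = 0.94 over the libraries and 0.22 within groups, and *Trim28* and *Setdb1* followed, with 0.92 and 0.40.

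Of 42 other genes tied to H3K9 and repeat silencing, called other silencing genes here, 41 were tested and *Zfp708* had 0 reads. The list includes 6 genes of H3K9 demethylases, which remove methylation from H3K9 and do not place it. Per ERCC read 37 of 41 were higher and 2 lower, beside 80.5% and 4.15% of all genes tested. As share 15 of 41 were higher and 16 lower, beside 24.6% and 32%. The HUSH subunit gene *Fam208a* (TASOR) was 0.10 ± 0.02 higher in share, its relative *Fam208b* 1.19 ± 0.03 higher and *Morc2a* lower, at -0.13 ± 0.02. *Fam208b*, the corepressor gene *Trim24* (0.25 ± 0.01) and the HP1 gene *Cbx5* (0.24 ± 0.02) had the highest differences among those called. *Wiz* (-0.93 ± 0.04), which encodes a zinc-finger partner of EHMT1 and EHMT2, the KRAB zinc-finger gene *Gm15446* (-0.86 ± 0.03) and *Zfp644* (-0.71 ± 0.22) had the lowest. *Zfp644* had 12 to 88 reads a library. *Wiz* and *Gm15446* were also the 2 lower per ERCC read, at -0.20 ± 0.06 and -0.13 ± 0.06. Of 6 other H3K9 methyltransferase genes and partners, 1 was higher and 4 lower in share, of 8 histone chaperone and H3.3 genes 0 and 4, of 10 other corepressors and remodellers 6 and 1, and of 6 H3K9 demethylase genes 4 and 2. Against the same 24.6% and 32% of all genes, nothing particular to the list or to a class is read from these counts. Some of these genes, *H3f3a* and *Cbx3* among them, have processed copies that reads may be split with.

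**Figure D4:**
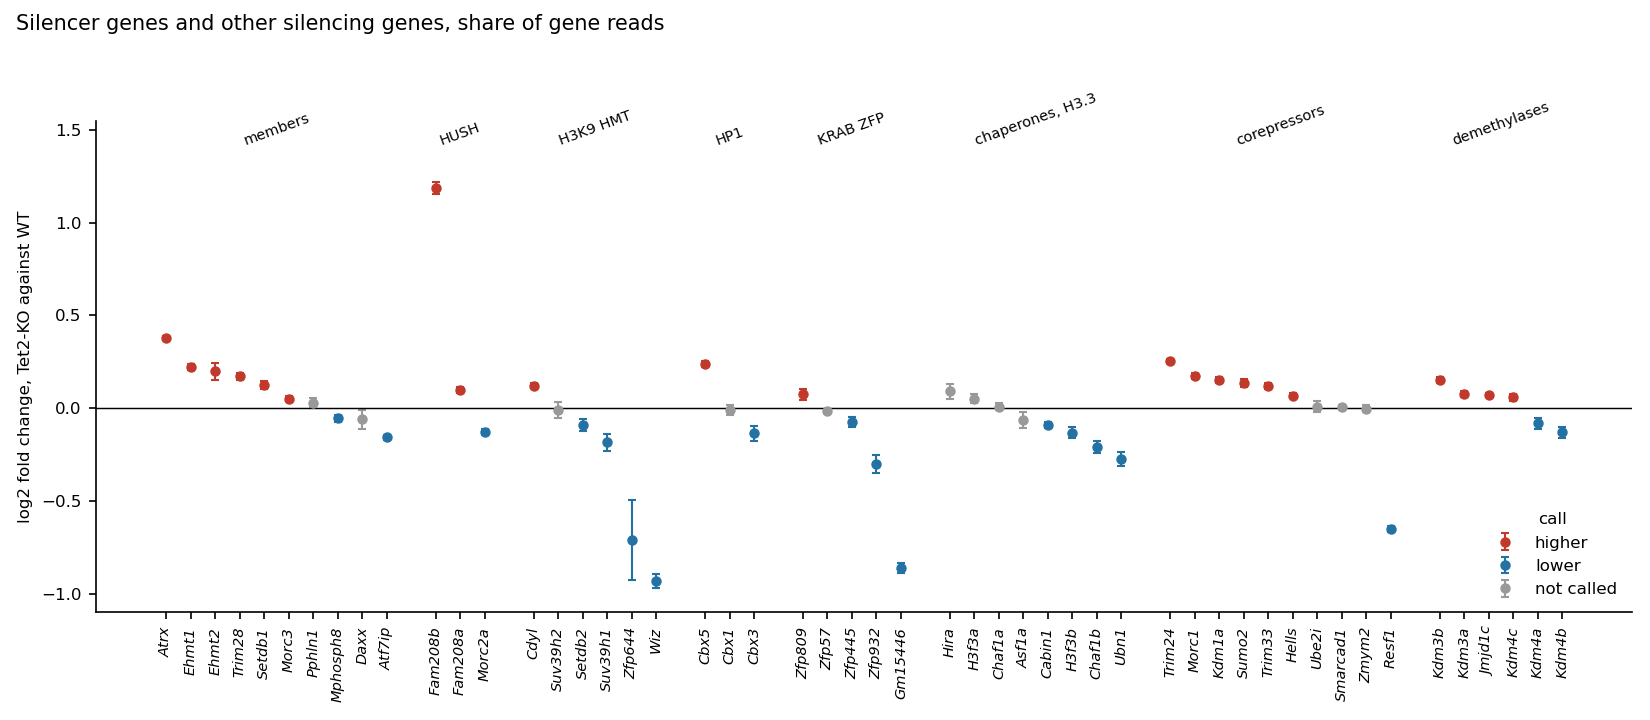
Log2 fold changes of share of gene reads, *Tet2*-KO against WT averaged over labelling times (vertical axis), with bars of 1 SE, for the 10 members and the 41 other silencing genes tested, grouped by role (HMT, histone methyltransferase; ZFP, zinc-finger protein) and coloured by call. *Fam208b* lies highest at 1.19, *Wiz* lowest at -0.93, and the members lie between -0.16 and 0.38.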

How the data were processed

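Nascent RNA of 18 libraries was analysed, 3 for each of 2 genotypes and 3 EU labelling times. Per the labels and the study's methods, the authors trimmed reads with Trimmomatic 0.39, aligned them with HISAT2 2.2.1 to mm10 with GENCODE M19 and the ERCC sequences, and deposited raw HTSeq 0.12.4 counts per gene; the feature type, strand setting and overlap mode are not given in the sources used here. The 5 summary rows, which held 20.9 to 24.9% of counted reads, were left out. Identifiers were matched to GENCODE M21 (54409 of 54446). The members and gene lists were chosen with earlier results of these data known.

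Counts were tested with edgeR 4.0.16 in R 4.3.3 by the quasi-likelihood test, in one fit of 6 groups, with ERCC read totals or gene read totals as library sizes, after filterByExpr (minimum count 10), and p-values were adjusted by Benjamini-Hochberg over all 19910 genes. The call threshold was an adjusted p of 0.05. The scripts were tested on simulated data with known changes. The first limits on recovery failed and were replaced, after those results were seen, by limits for genes with higher counts. The simulated counts had the same spread setting for every gene and no error in the ERCC totals, so that error was not tested. Changes of genes averaging under 20 counts were often missed there, so all-gene percentages leave out many such changes. The members lie well above that range. Rates are least-squares slopes with an intercept. Likeness is Pearson's r of log2 CPM, with 0.5 added to each CPM, and candidates were protein-coding genes averaging over 4 on that log2 scale. Promoter windows come from RefSeq. Named were all members, the 3 highest and 3 lowest called genes of the other list, those not tested, and the gene most like each member; *Morc2a*, *Fam208a*, *H3f3a* and *Cbx3* were named after their values were seen. *Resf1* stands in that list under its older symbol 2810474O19Rik, and was matched through the RefSeq synonyms. Alternatives were another scaling, DESeq2 1.42.0, other count filters, a replicate block and each library left out. Replicates of a group differed by more than counting noise in all 18 pairs (chi-square per gene 1.66 to 5.52).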

Additional observations from a re-analysis of the deposited data

Results flagged for a closer look

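The difference between the genotypes changed with labelling time, by the test of the interaction, in 7 cases. Per ERCC read the log2 ratio of *Tet2*-KO to WT was smaller at 40 min than at 10 min by an interaction of -0.44 for *Setdb1*, -0.38 for *Atf7ip*, -0.49 for *Atrx* and -0.42 for *Ehmt2*. As share of gene reads the interaction was 0.17 for *Mphosph8*, -0.15 for *Atrx* and 0.13 for *Ehmt1*. The median of all genes was -0.29 per ERCC read and 0.06 as share.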

How the results depend on the processing

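Per ERCC read, the count of 10 members higher averaged over labelling times and at each time was the same under every alternative run, the replicate block included (10). Replicate numbers did not pair the libraries (same-number correlations of deviations from -0.07 to 0.06, median -0.01), and the block changed 1 call, that of *Mphosph8* in WT at 40 against 10 min. The members lower in share averaged over times fell from 2 to 1 with TMM factors, with DESeq2 and its own size factors, and with the 20 and 40 min libraries only, an alternative chosen after seeing the data, as was the RefSeq span. With TMM factors 5 members were higher in share at 40 min. The interaction in share called 0 members higher with TMM factors and 0 with DESeq2, where it called 3 lower. Members lower in share at 40 against 10 min were 1 in WT and 0 in *Tet2*-KO with TMM factors, and 1 and 0 with DESeq2. The cause was not tested. The median rate ratio was 1.21 from 10 and 20 min only and 1.96 from 20 and 40 min only, beside 1.11 and 1.92 for all protein-coding genes summed. The ratio of the highest to the lowest level per kilobase, 8.51 by exons, was 10.0 by gene span and 29.3 by RefSeq span, as the length itself changed.

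With each library left out in turn, the interaction per ERCC read called 1 to 8 members lower and that in share 1 to 2 higher, the lower members at 40 against 10 min in share were 1 to 2 in WT and 1 to 2 in *Tet2*-KO, and 1 to 2 of the other silencing genes were lower per ERCC read.

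Direction turned in 23 cases. Of those with a p, 0 were past the threshold, and the *Atf7ip* rate ratio had no p. With TMM factors and DESeq2 in that order, the share difference of *Daxx* at 10 min was 0.0569 and 0.0569, and the interaction in share was -0.0351 and -0.0419 for *Trim28*, -0.0210 and -0.0276 for *Pphln1* and -0.0159 and -0.0229 for *Morc3*. With each library left out, the share difference at 10 min ran from -0.00554 to 0.0610 for *Pphln1*, -0.0118 to 0.0211 for *Morc3* and -0.120 to 0.0901 for *Daxx*, that of *Pphln1* at 20 min from -0.0228 to 0.0251, and the interaction in share from -0.00260 to 0.0540 for *Trim28*, -0.130 to 0.0807 for *Daxx* and -0.175 to 0.0168 for *Ehmt2*. The *Atf7ip* rate ratio from 10 and 20 min only was 0.979. Of 2990 values for single members, 2871 stayed the same. For tested values this means that direction and side of the threshold were kept. For rate ratios, which have no p, it means less than 1 SE from the main ratio. *Daxx* and *Ehmt2*, with the fewest reads, had the largest standard errors.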
